A study of Mus musculus with 22 samples.

Results

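The comparison concerns the colonic mucosa of mice after 2 days of dextran sodium sulfate (DSS), with and without Cre recombinase in the intestinal epithelium. Its members are the 8 arrays of day 2 among the 22 of the series, 5 from VC+ mice and 3 from VC- mice, chosen by the labels alone. VC+ mice are PPARγ fl/fl mice that carry a Villin-Cre transgene, in which the Villin promoter drives the recombinase in epithelial cells of the gut. VC- mice carry the same floxed PPARγ alleles without the transgene, so that the floxed alleles and the 2.5% DSS in the drinking water were shared by both groups. Per the study's methods RNA came from homogenized colonic tissue. The study used mice of a mixed FVB/C57BL/6 and of a C57BL/6 background, and neither the background of the mice on these arrays, nor their age, nor whether each array is a separate mouse is given in the sources used here. Each array gave 1 log2 signal per probe set, on which a difference of 1 stands for a 2-fold difference in signal. Of 18194 genes, each read through its most variable probe set, the 9097 in the upper 50% by interquartile range over the 22 arrays were tested.

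PPARγ is a nuclear receptor that binds fatty acids and related lipids and, as a dimer with a retinoid X receptor, turns on genes of lipid uptake, storage and oxidation. The colonic epithelium is among the tissues where it is most abundant. DSS is a sulfated polysaccharide that injures this epithelium from the lumen and so starts a colitis. The comparison addresses how the early mucosal response differs when the epithelium lacks the receptor.

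Both groups held markers of other tissue layers, so the arrays describe colon wall and not isolated epithelium. The mean log2 signal of the smooth muscle list lay between 10.25 and 11.07 on the VC+ arrays and between 9.35 and 10.65 on the VC- arrays. For the colonocyte list it lay between 10.84 and 11.19 in VC+ and between 10.63 and 11.24 in VC-. In such bulk samples, fewer cells of a type and less RNA per cell cannot be told apart. Neutrophil genes gave almost no signal at this time: 11 of the 16 neutrophil genes on the array were under 4 on all 8 arrays, and the mean of the list was 2.86 to 3.16 in VC+ and 2.88 to 2.98 in VC-.

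The arrays of day 2 also differed in properties that went along with the genotype. Hoxb13, a homeobox gene whose expression marks the distal end of the colon, had log2 signals of 12.42, 3.07, 9.45, 10.44 and 11.19 on VC+ replicates 1 to 5, against 3.08, 2.95 and 2.88 on VC- replicates 1 to 3. Hoxd10 had the mirror pattern, with 2.63, 7.11, 2.43, 2.42 and 2.41 in VC+ and 6.18, 7.89 and 7.17 in VC-. VC+ replicate 2 thus lay with the VC- arrays in both genes, and the other 4 VC+ arrays lay apart from them. Xist, the RNA that silences 1 X chromosome in females, was at 2.06, 2.06, 2.07, 11.87 and 11.90 in VC+ and at 2.07, 11.59 and 11.58 in VC-, so that each genotype held arrays of both sexes. Dbp, an output gene of the circadian clock, was at 8.43, 10.50, 5.71, 6.91 and 6.75 in VC+ and at 6.89, 11.74 and 12.18 in VC-, and its counterpart Arntl was lowest on VC- replicates 2 and 3, at 6.26 and 5.95. VC- replicate 1 therefore stood apart from the other VC- arrays in Xist and Dbp. The same held for Nktr, at 7.42 on VC- replicate 1 and under 4 on VC- replicates 2 and 3. At day 0 Nktr was at 4.25 and 4.77 on VC- replicates 2 and 3. On the VC+ arrays of all days it lay between 6.73 and 8.15. Its other probe sets gave VC+ minus VC- differences of only -0.0506 to 0.12 at day 2. The cause was not tested. Any 2 arrays of day 2 correlated at 0.9744 to 0.9961 over all probe sets.

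**Figure D1:**
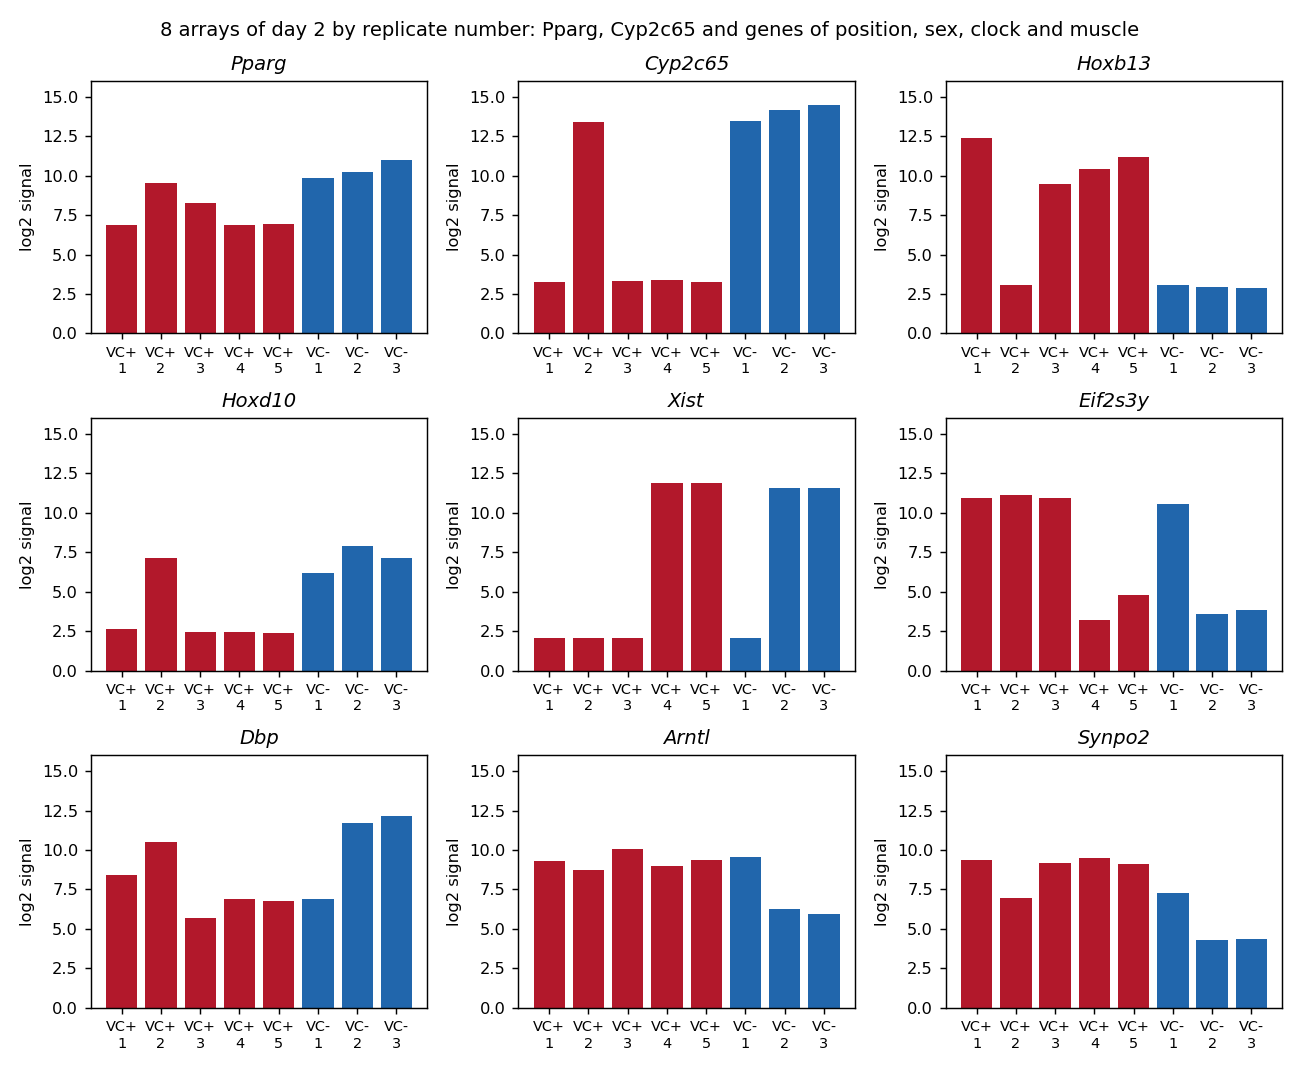
Log2 signals (vertical axis) of Pparg, Cyp2c65, Hoxb13, Hoxd10, Xist, Eif2s3y, Dbp, Arntl and Synpo2, with 1 bar for each of the 8 arrays of day 2, VC+ replicates (red) left of VC- replicates (blue). Hoxb13 is high on 4 of the 5 VC+ arrays and near 3 on VC+ replicate 2 and on all 3 VC- arrays.

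Pparg, the targeted gene, had log2 signals of 6.91, 9.54, 8.27, 6.87 and 6.96 in VC+ and 9.87, 10.25 and 10.96 in VC-. All 5 VC+ arrays lay below all 3 VC- arrays, and VC+ replicate 2 came closest to them. The means were 7.71 ± 1.18 in VC+ (SD, n = 5) and 10.36 ± 0.55 in VC- (SD, n = 3). The difference of -2.65 had an exact two-sided permutation p of 0.0357, the smallest that the 56 splits of 5 against 3 arrays allow, or 0.25 after adjustment over the 7 genes tested in this way. In the limma fit across all genes its standard error was 0.76 and its adjusted p 0.242. The single probe set of Pparg reads the 3′ end of the transcript and the sources used here do not name the deleted exon, so its level is no direct check of the deletion, and the label of a PPARγ-null epithelium was not checked by it. Among the day-2 arrays with Hoxb13 under 5, which are VC+ replicate 2 and all VC- arrays, the difference was -0.82.

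The level of Pparg was also set beside that of Hoxb13 over the 22 arrays of all days. Where Hoxb13 was above 5, Pparg lay between 6.26 and 8.62 on 6 VC+ arrays, with a median of 6.93, and between 8.57 and 9.63 on 4 VC- arrays, with a median of 9.60. Where Hoxb13 was 5 or less, it lay between 8.50 and 10.35 on 6 VC+ arrays and between 7.39 and 10.96 on 6 VC- arrays. These ranges mix the 3 time points and are given as a description.

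Only 4 genes passed the adjusted threshold of 0.05 between the genotypes at day 2, all of them lower in VC+, which is 0.044% of the genes tested. They were Slc35e3, Slc16a9, Fabp1 and Acaa1b, by limma with Benjamini-Hochberg adjustment over the 9097 genes. No gene passed in the other direction, and a gene that did not pass may still differ. Before adjustment 1122 genes (12.3%) had a p under 0.05, of which 609 (6.69%) were higher and 513 (5.64%) lower in VC+. In 704 genes (7.74%) the 5 VC+ arrays did not overlap with the 3 VC- arrays, 338 (3.72%) being higher and 366 (4.02%) lower in VC+, and 49.7% of all genes tested had a log2 fold change above 0. When the median of each array was subtracted first, the split was 729 higher and 394 lower.

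**Figure D2:**
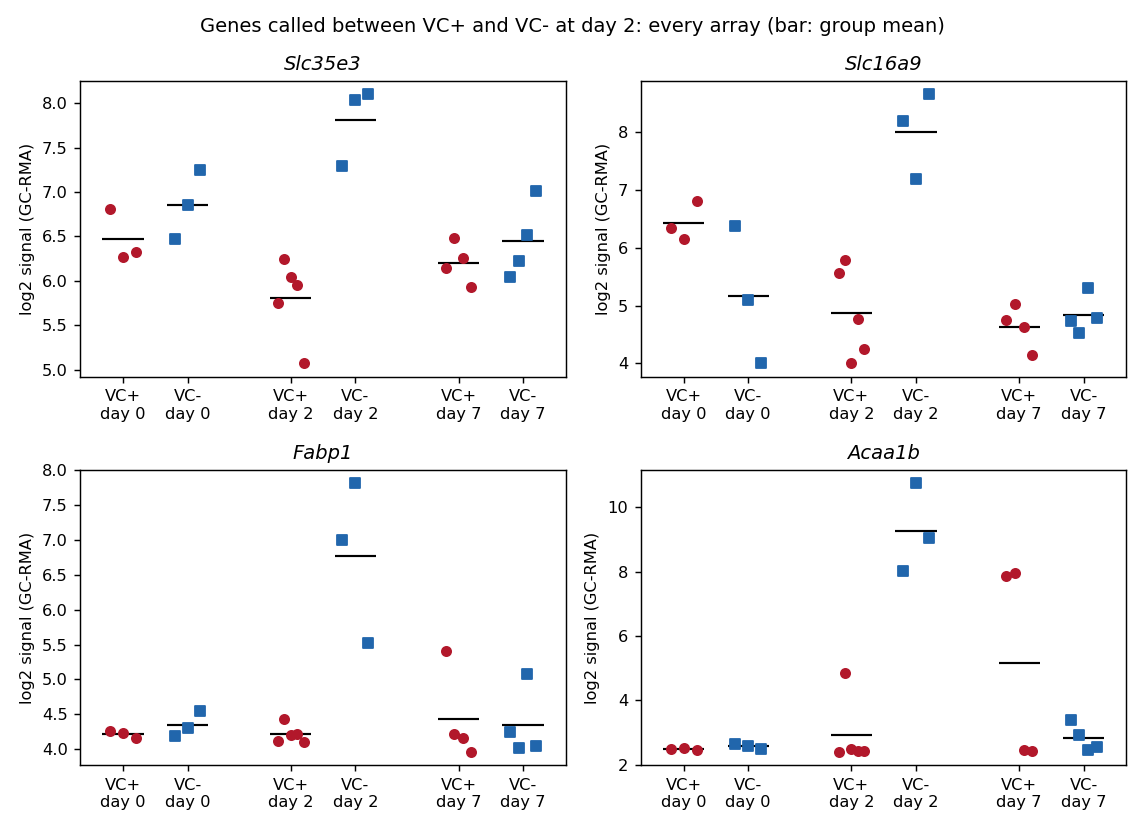
Log2 signals of the 4 called genes on all 22 arrays by genotype and day, 1 point per array, with VC+ left of VC- at each day and bars for the group means. The 3 VC- arrays of day 2 lie above the 5 VC+ arrays of day 2 in each gene.

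Acaa1b had the largest difference of the 4. It encodes a peroxisomal 3-ketoacyl-CoA thiolase, the enzyme of the last step of peroxisomal fatty acid oxidation, and is a known target of PPARα in mouse liver. Its log2 signals were 2.40, 4.86, 2.50, 2.44 and 2.43 in VC+ and 8.02, 10.74 and 9.03 in VC-. On 4 of the 5 VC+ arrays it was thus at the low end of the scale, and VC+ replicate 2 stood above them. The means were 2.93 ± 1.08 (SD, n = 5) in VC+ and 9.26 ± 1.38 (SD, n = 3) in VC-, a log2 difference of -6.34 ± 1.06 (standard error; adjusted p = 0.0217). Before DSS it was between 2.48 and 2.52 on the 3 VC+ arrays and between 2.48 and 2.65 on the 3 VC- arrays. At day 7 it was at 7.87, 7.94, 2.45 and 2.44 in VC+ and at 3.41, 2.93, 2.45 and 2.57 in VC-, where only 2 VC+ arrays approached the level of the VC- arrays of day 2. Acaa1b lost its call when any one of VC+ replicates 1, 3, 4 and 5 or VC- replicates 2 and 3 was left out, with adjusted p up to 0.349. It also lost it when all 18194 genes were tested without the filter, and with a factor for Xist above 8. The other 3 called genes kept their calls in both of these fits.

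Fabp1 encodes the liver-type fatty acid binding protein, which carries long-chain fatty acids in the cytosol of hepatocytes and enterocytes and is a textbook target of the PPAR receptors. It had log2 signals of 4.11, 4.43, 4.20, 4.21 and 4.10 in VC+ and 7.00, 7.81 and 5.52 in VC-. The VC+ arrays lay within a range narrower than the gap to the lowest VC- array. Means of 4.21 ± 0.13 (SD, n = 5) in VC+ and 6.78 ± 1.16 (SD, n = 3) in VC- gave a difference of -2.56 with a standard error of 0.39 (adjusted p = 0.00875). On the 6 arrays before DSS Fabp1 was between 4.16 and 4.26 in VC+ and between 4.19 and 4.54 in VC-, and at day 7 it reached 5.41 on 1 VC+ array and 5.07 on 1 VC- array. No VC- array of another day reached the lowest VC- array of day 2 in Fabp1 or in Acaa1b. A second probe set of Fabp1 stayed near background, at 2.88 to 3.09 in VC+ and 2.99 to 3.35 in VC-, with a log2 fold change of -0.27.

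Slc16a9 encodes a carrier of the monocarboxylate transporter family. Its log2 signals were 5.56, 5.79, 4.01, 4.77 and 4.25 in VC+ and 8.19, 7.19 and 8.66 in VC-, without overlap. It averaged 4.88 ± 0.78 (SD, n = 5) in VC+ and 8.01 ± 0.75 (SD, n = 3) in VC-, a difference of -3.14 with a standard error of 0.47 (adjusted p = 0.00875). Of its other 2 probe sets, one gave -2.90 and the other -1.62. Here the order of the group means was reversed before DSS, with 6.34, 6.16 and 6.81 in VC+ and 6.38, 5.09 and 4.00 in VC-. The groups overlapped then, since VC- replicate 1 of day 0, at 6.38, lay among the VC+ arrays. The difference of Slc16a9 at day 2 differed from that at day 0 by -4.41 on the log2 scale (standard error 0.71, adjusted p = 0.0486).

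Slc35e3 encodes a member of the family of nucleotide sugar transporters. It had log2 signals of 5.75, 6.24, 6.04, 5.95 and 5.07 in VC+ and 7.29, 8.04 and 8.10 in VC-. The groups were separated by more than the span of the VC- arrays, with means of 5.81 ± 0.45 (SD, n = 5) in VC+ and 7.81 ± 0.45 (SD, n = 3) in VC-. VC+ minus VC- was -2.0 on the log2 scale (standard error 0.28, adjusted p = 0.00875). Its VC+ minus VC- differences were -0.39 at day 0 and -0.25 at day 7.

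VC+ replicate 2, the VC+ array of low Hoxb13, set against the 3 VC- arrays gave log2 fold changes of -4.40 for Acaa1b, -2.35 for Fabp1, -2.22 for Slc16a9 and -1.57 for Slc35e3. Their sign was fixed by the lack of overlap in these genes. Their size comes from arrays that also served to call them, with 1 array on the VC+ side, and is given as a description. None of the 4 was called with Hoxb13 as a covariate or with the replicate number as a block, where the adjusted p ran from 0.0543 to 0.67. Leaving out VC- replicate 2 left Slc16a9 as the only gene called, and leaving out VC- replicate 3 left Fabp1 of the 4, together with 1 other gene, Plppr5.

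The promoters of the called genes were read for the direct repeat that PPAR receptors bind with their partner, since Fabp1 and Acaa1b belong to lipid pathways. Promoters were taken from RefSeq (GRCm38.p6) as the 250 bases before to 50 after each start. The strict form, 2 copies of AGGTCA in the same orientation with 1 base between them, on either strand, was found in 13 of 32851 promoters (0.0396%) and in none of the 4 genes. A looser form with 2 copies of AGGNCA, which includes the strict one, was found in 125 promoters (0.381%). Of the 4 called genes only Fabp1 held it, 67 to 55 bases before its start, as printed here in capitals on the strand of the gene, at chr6:71199629-71199928 on the plus strand.
Fabp1 promoter: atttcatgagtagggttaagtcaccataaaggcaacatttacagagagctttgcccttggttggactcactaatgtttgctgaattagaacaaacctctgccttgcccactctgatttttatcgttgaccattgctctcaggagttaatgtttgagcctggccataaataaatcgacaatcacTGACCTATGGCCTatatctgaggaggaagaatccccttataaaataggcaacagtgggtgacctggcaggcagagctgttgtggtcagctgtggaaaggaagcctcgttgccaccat

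A match is a run of letters and not a measured binding site. Among the 92 genes that were lower in VC+ with an unadjusted p under 0.01 and no overlap between groups (1.01% of the genes tested), 70 had a promoter and Fabp1 was the only one with a match. Among the 82 that were higher by the same rule (0.901%), 67 had a promoter and none held one.

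Among the genes that were not called, the largest differences below 0 included enzymes of the colonocyte that handle lipids, esters and foreign compounds. Cyp2c65, an intestinal cytochrome P450 that oxidizes arachidonic acid, was at 3.25, 13.38, 3.35, 3.38 and 3.27 in VC+ and at 13.49, 14.18 and 14.48 in VC-. VC+ replicate 2 had the level of the VC- arrays and the other 4 were near background. The difference was -8.72 with a standard error of 2.19 (adjusted p = 0.235), and -10.74 with an adjusted p of 0.0104 without VC+ replicate 2. Between VC+ replicate 2 alone and the VC- arrays it was -0.67. On the 4 VC- arrays of other days with Hoxb13 above 5, Cyp2c65 was between 9.14 and 12.49, and on the 6 VC+ arrays with Hoxb13 above 5 it was between 3.06 and 8.46.

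The same shape was seen in Arg2, the mitochondrial arginase, at 2.77, 7.03, 2.84, 2.82 and 3.44 in VC+ and 8.17, 7.73 and 8.81 in VC-. Its log2 fold change was -4.46, with an adjusted p of 0.23, and -5.27 with an adjusted p of 0.0134 without VC+ replicate 2. Ces1g, a carboxylesterase, was at 4.09, 8.72, 6.79, 4.81 and 4.32 in VC+ and at 9.77, 11.70 and 11.84 in VC-. The transcript 1810065E05Rik was at 9.81, 14.53, 9.74, 10.49 and 9.998 in VC+ and at 14.70, 15.31 and 15.22 in VC-. In each of these the array nearest to VC- was VC+ replicate 2. It held this place in 56 of the 92 lower genes (60.9%), against 43.4% of all tested genes with a log2 fold change below 0.

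Some genes were low on all 5 VC+ arrays. Lpo, which encodes lactoperoxidase, was at 4.32, 4.44, 3.55, 3.60 and 3.47 in VC+ and at 7.73, 7.62 and 8.07 in VC-, a log2 fold change of -3.93 with an adjusted p of 0.23. Its difference was -3.77 before DSS and it was the 1 gene called when only the 8 arrays of day 2 entered the fit. At day 7 Lpo was at 7.60, 8.88, 3.41 and 4.95 in VC+ and at 6.26, 3.41, 3.41 and 8.26 in VC-. Cldn2, the pore-forming claudin of leaky epithelia, was at 4.83, 6.42, 5.33, 3.02 and 5.11 in VC+ and at 8.82, 7.29 and 7.96 in VC- (log2 fold change -3.08). The other probe set of Cldn2, of higher signal, gave -2.35 with overlap. There VC+ replicate 2, at 11.07, lay above VC- replicate 3, at 10.96. Agmo, which cleaves ether lipids, was at 7.87, 8.94, 8.72, 7.43 and 4.37 in VC+ and at 9.89, 10.33 and 10.02 in VC- (log2 fold change -2.61). The remaining genes of the 15 with the largest such differences included the mucin-modifying glycosyltransferase A4gnt at -3.94, the carboxylesterase Ces2b at -3.74, the glucuronosyltransferase Ugt2b36 at -2.81 and the cytochrome P450 Cyp3a44 at -2.78. Apart from the 4 called genes, none of these passed the adjusted threshold.

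On the side of higher signals in VC+, the largest difference was in Sval1, which resembles a secreted protein of the seminal vesicle. It was at 15.42, 12.40, 14.68, 14.74 and 15.21 in VC+ and at 10.95, 5.39 and 4.57 in VC-, a log2 fold change of 7.52, against -5.93 before DSS. Insl5, a peptide hormone made by enteroendocrine cells of the distal colon, was at 11.96, 7.60, 10.48, 11.35 and 12.02 in VC+ and at 7.56, 2.91 and 3.03 in VC- (log2 fold change 6.18). Its difference before DSS was -3.04, so that in both genes the sign at day 2 was opposite to that at day 0. Hoxb13 was also divided otherwise at day 0, with 12.42, 3.09 and 2.88 in VC+ and 7.29, 9.13 and 9.67 in VC-. Its part in these sign changes was not tested.

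Further genes of this side encode secreted or transport proteins of the epithelium or matrix. Atp12a, the colonic proton-potassium pump, was at 13.31, 6.64, 9.97, 10.45 and 11.19 in VC+ and at 5.64, 6.19 and 5.41 in VC- (4.57). Spink1, a trypsin inhibitor, was at 14.94, 11.89, 13.98, 13.87 and 14.57 in VC+ and at 11.11, 9.71 and 7.64 in VC- (4.36). Thbs4, a matrix thrombospondin, was at 12.27, 8.30, 10.62, 10.69 and 10.91 in VC+ and at 8.27, 6.32 and 4.51 in VC- (4.19). VC- replicate 1 was the VC- array nearest to VC+ in 74 of the 82 higher genes (90.2%), against 57% of all tested genes with a log2 fold change above 0, and VC+ replicate 2 was the VC+ array nearest to VC- in 46 of them (56.1%, against 35.1%). Without VC- replicate 1 the fit called 250 genes, 177 of them higher in VC+, and the 4 called genes were among them.

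**Figure D3:**
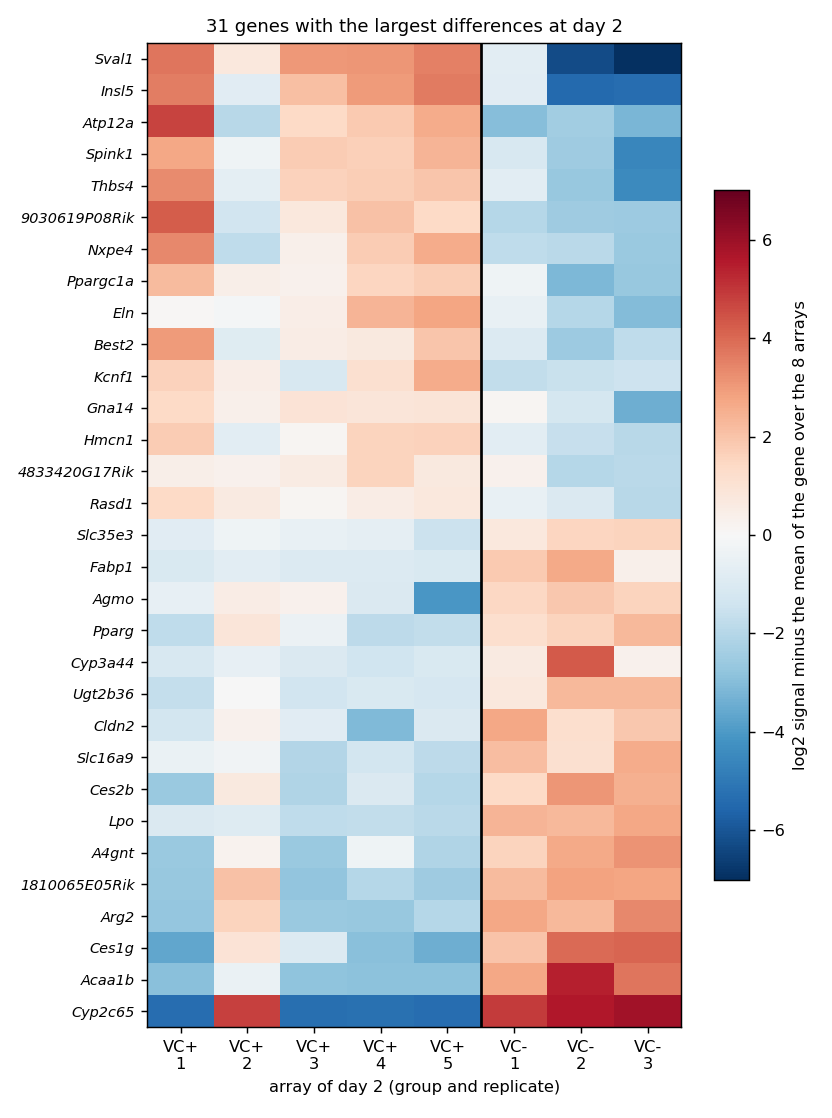
Colour gives the log2 signal minus the mean of the gene over the 8 arrays, red above and blue below it, for the genes with the largest differences in each direction and Pparg, with VC+ replicates 1 to 5 left of VC- replicates 1 to 3. In Cyp2c65 VC+ replicate 2 (13.38) has the colour of the VC- arrays, and in Sval1 VC- replicate 1 (10.95) is paler than the other VC- arrays.

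Ppargc1a encodes the coactivator PGC-1α, which works with PPARγ and other nuclear receptors on mitochondrial and oxidative genes. It was at 10.58, 8.80, 8.65, 9.89 and 10.07 in VC+ and at 8.07, 5.23 and 5.73 in VC-, a log2 fold change of 3.26. Nrip1, the corepressor RIP140, was at 8.94, 7.20, 8.84, 8.96 and 9.09 in VC+ and at 8.14, 6.46 and 7.39 in VC- (1.27, adjusted p = 0.26, and 1.62 with an adjusted p of 0.0497 without VC+ replicate 2). Ppara, the receptor that governs fatty acid oxidation in liver, was at 5.72, 7.88, 5.48, 5.86 and 5.95 in VC+ and at 7.63, 8.26 and 7.75 in VC-, a log2 fold change of -1.70 with an adjusted p of 0.42. In this probe set only VC+ replicate 2 overlapped with the VC- arrays. A further probe set of Ppara gave -1.37 without overlap, at 6.59 to 7.17 in VC+ and 7.58 to 8.52 in VC-. Another gave -0.69, with overlap at VC+ replicate 2. For Ppard, the third receptor of the family, the difference was 0.09 with an adjusted p of 0.96. Of the 13 tested receptors, partners and coregulators, none was called, and 3 were higher and 1 lower at an unadjusted p under 0.05. Among all genes tested 6.69% were higher and 5.64% lower at that level.

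Genes of lipid handling lay mostly on the lower side in VC+. Of 29 tested targets of lipid uptake and storage, Fabp1 alone was called, 5 were lower and 0 higher at an unadjusted p under 0.05, and 24 of the 29 had a negative log2 fold change. The median of the list was -0.48, against 0.00 over all genes tested. Of 27 genes of fatty acid oxidation and ketogenesis, Acaa1b alone was called, 8 were lower and 0 higher at that level, against 5.64% lower among all genes, and the median was -0.56. Vnn1, a pantetheinase and a PPAR target in mouse liver, was at 5.02, 8.57, 3.35, 4.09 and 4.46 in VC+ and at 9.45, 9.86 and 8.04 in VC- (log2 fold change -4.02).

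The closest relative of Acaa1b, the thiolase Acaa1a, was at 8.73, 9.42, 8.38, 8.58 and 8.51 in VC+ and at 9.64, 9.69 and 9.65 in VC-. Its log2 fold change was -0.94 and the groups did not overlap. Hsd17b4, the peroxisomal enzyme acting just before the thiolase, was at 9.42, 10.25, 9.31, 9.39 and 9.55 in VC+ and at 10.26, 10.36 and 10.47 in VC- (-0.78). Further log2 fold changes in this group were -1.33 for the fatty acid carrier Slc27a2, -1.33 for Dgat2 and -0.48 for Dgat1 of triglyceride synthesis, -0.94 for the monoglyceride lipase Mgll, -1.20 for the thioesterase Acot1, -0.76 for the mitochondrial dehydrogenase Acadl, -0.61 for Cpt1a, -0.56 for Eci2 and -1.01 for the peroxisomal Ehhadh. None of these passed the adjusted threshold. Between VC+ replicate 2 and the VC- arrays the values of Slc27a2 (0.0804), Dgat2 (0.25), Acadl (0.13) and Cpt1a (0.0556) were above 0.

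The 33 tested enzymes of xenobiotic metabolism had a median of -0.80, with 30 of them negative and 6 lower and 1 higher at an unadjusted p under 0.05. Over all genes tested 5.64% were lower and 6.69% higher at that level. Between VC+ replicate 2 and the VC- arrays the median was 0.08 for lipid uptake and storage, 0.04 for fatty acid oxidation and -0.22 for xenobiotic metabolism. Without VC+ replicate 2 the medians were -0.59, -0.75 and -0.89 in the same order. With Hoxb13 as a covariate they were 0.00, -0.16 and 0.13. Since 4 of the 5 VC+ arrays of day 2 and none of the VC- arrays had a high Hoxb13 signal, the parts of genotype and Hoxb13 in these medians cannot be told apart. At days 0 and 7 their medians ran from -0.13 to 0.54.

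**Figure D4:**
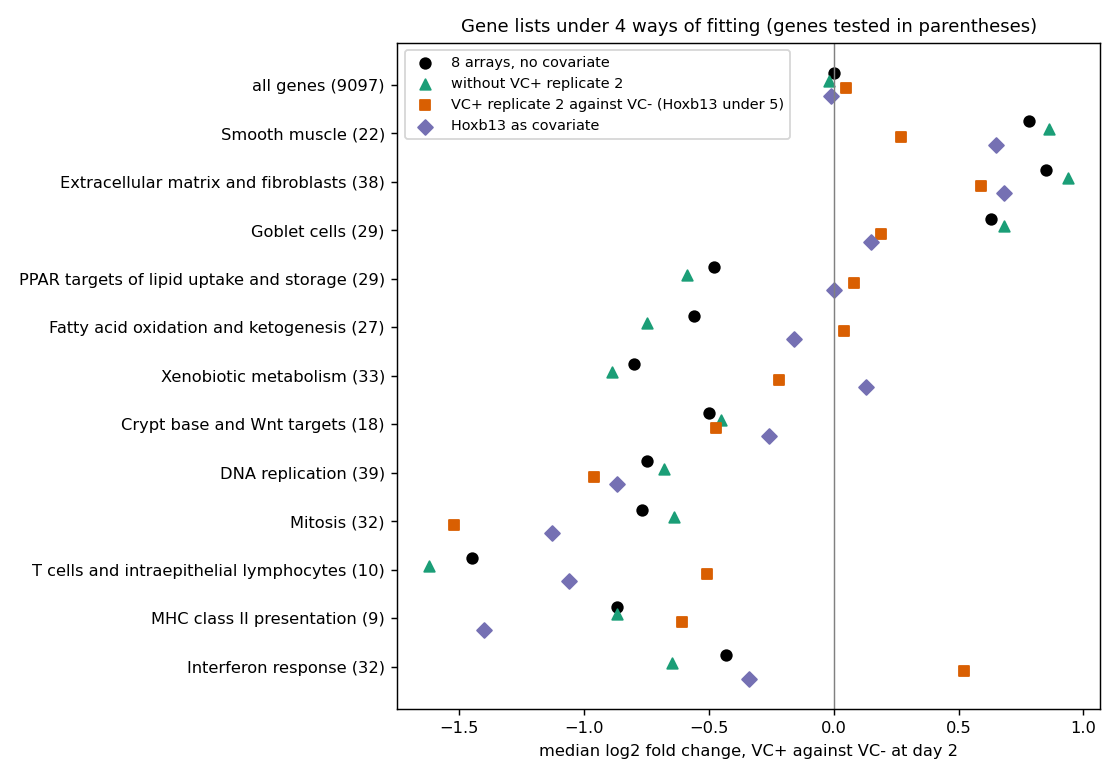
Median log2 fold change, VC+ over VC- at day 2, of 12 gene lists and of all genes, 1 symbol for each of 4 fits: all arrays, without VC+ replicate 2, VC+ replicate 2 against the VC- arrays, and Hoxb13 as a covariate. The list of PPAR targets of lipid uptake is at -0.48, -0.59, 0.08 and 0.00 in that order, and DNA replication at -0.75, -0.68, -0.96 and -0.87.

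Genes of DNA replication had mostly lower signals in VC+, although none was called. Of 39 tested, 19 were lower and 0 higher at an unadjusted p under 0.05, against 5.64% lower among all genes, and in 15 the groups did not overlap, against 4.02%. The median was -0.75, and 37 of the 39 were negative. Cdt1, which loads the replicative helicase at origins, was at 7.71, 7.57, 8.32, 8.57 and 8.10 in VC+ and at 9.10, 9.33 and 10.23 in VC- (-1.50). Pola1, the catalytic subunit of the priming polymerase, was at 3.93, 3.62, 4.62, 4.70 and 4.35 in VC+ and at 5.13, 5.87 and 6.73 in VC- (-1.67). Rpa2, a subunit of the protein that coats single strands, was at 5.14, 4.82, 5.07, 5.10 and 5.08 in VC+ and at 6.08, 6.03 and 6.88 in VC- (-1.29).

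In these genes VC+ replicate 2 lay with the other VC+ arrays. The helicase subunit Mcm6 was at 6.42, 7.31, 8.63, 8.93 and 7.91 in VC+ and at 9.18, 9.36 and 9.47 in VC-, and the sliding clamp Pcna at 11.40, 11.06, 11.75, 11.68 and 11.50 in VC+ and at 11.83, 11.84 and 12.48 in VC-. The median of the replication list was -0.96 between VC+ replicate 2 and the VC- arrays, -0.87 with Hoxb13 as a covariate and -0.91 with Dbp as a covariate. Among the arrays with Xist of 8 or less, which leave VC- replicate 1 as the sole VC- array of day 2, it was -0.59. Before DSS the median was -0.35, and at day 7 it was 1.11.

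Mitosis genes had a median of -0.77, with 31 of 32 negative, but only 1 lower and 0 higher at an unadjusted p under 0.05. Crypt base genes and Wnt targets had 4 of 18 lower at that level, against 5.64% lower among all genes, and a median of -0.50. Lgr5, the receptor that marks stem cells at the crypt base, was at 3.53, 3.39, 3.27, 3.41 and 3.40 in VC+ and at 3.55, 4.49 and 5.35 in VC-, so that its signal was near background on all VC+ arrays and on VC- replicate 1.

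T cell and intraepithelial lymphocyte genes had lower signals in VC+ without a call, and few of them were measurable: 19 of the 29 on the array were under 4 on all 8 arrays. Of the 10 tested, 8 were lower and 0 higher at an unadjusted p under 0.05, against 5.64% lower among all genes, and the median was -1.45. Itgae, the integrin subunit that holds lymphocytes in the epithelium, was at 7.03, 7.09, 6.78, 7.11 and 6.92 in VC+ and at 7.35, 9.06 and 8.01 in VC-. Cd3g, a chain of the T cell receptor complex, was at 3.21, 3.46, 3.01, 3.00 and 2.95 in VC+ and at 3.48, 6.49 and 5.39 in VC-, where VC- replicate 1 had the level of the VC+ arrays.

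The cytotoxic granule protease genes Gzma and Gzmb were at the level of the VC- arrays on VC+ replicate 2. Gzma was at 6.45, 9.21, 3.17, 3.10 and 2.70 in VC+ and at 8.73, 10.13 and 9.07 in VC-, and Gzmb was at 5.32, 7.51, 3.33, 3.93 and 2.29 in VC+ and at 6.90, 8.46 and 7.20 in VC-. Between VC+ replicate 2 and the VC- arrays the median of the list was -0.51, with 1 array on the VC+ side.

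All 9 MHC class II genes tested were negative, with a median of -0.87 and 1 lower at an unadjusted p under 0.05. The 12 B and plasma cell genes had a median of -0.91, also with 1 lower at that level, against 5.64% lower among all genes. Interferon response genes varied within the VC+ group: their mean log2 signal was 10.47, 9.10, 7.22, 6.84 and 7.03 in VC+ and 7.78, 9.12 and 9.12 in VC-. The highest and the lowest arrays were both VC+, and the median of the list was -2.11 between the arrays of day 2 with Xist above 8 and 1.01 between those with Xist of 8 or less. The macrophage list had a mean of 7.19 to 7.93 in VC+ and 7.49 to 7.82 in VC-.

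Inflammatory genes gave no difference that passed the test at day 2. Of 38 tested cytokines and chemokines, 2 were higher and 3 lower in VC+ at an unadjusted p under 0.05, with a median of -0.13. Among all genes tested 6.69% were higher and 5.64% lower at that level. Tnf and Il6 were near background in both groups, with means of 2.33 in VC+ and 2.40 in VC- for Tnf and of 2.13 in VC+ and 2.15 in VC- for Il6. By the exact permutation test over 5 against 3 arrays, the differences were -0.07 for Tnf (p = 0.214), -0.02 for Il6 (p = 0.25), -0.69 for Il1b (p = 0.107) and 0.15 for Irak1 (p = 0.214), and none was under 0.25 after adjustment. Fabp2, the intestinal fatty acid binding protein, averaged 12.55 ± 1.01 in VC+ (SD, n = 5) and 14.32 ± 0.54 in VC- (SD, n = 3), with an exact permutation p of 0.107 or 0.25 adjusted. Plin2, which coats lipid droplets, differed by -0.15 (exact permutation p = 0.571).

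The toll-like receptors ran in opposite directions. Tlr4, the receptor for bacterial lipopolysaccharide, was at 6.72, 6.20, 7.27, 7.28 and 6.55 in VC+ and at 6.59, 5.01 and 3.93 in VC- (1.62). Tlr2, which recognizes bacterial lipopeptides, was at 7.84, 7.91, 7.12, 7.46 and 7.90 in VC+ and at 8.23, 9.68 and 8.96 in VC- (-1.31). Tlr4 overlapped at VC- replicate 1 and Tlr2 did not overlap, and neither was called. Other probe sets of Tlr4 gave smaller differences of 0.63 and 0.67 and, near background, -0.0327.

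The antimicrobial lectins of the regenerating family spread widely among the VC+ arrays. Reg3b was at 3.93, 13.78, 14.01, 6.26 and 8.68 in VC+ and at 14.81, 14.26 and 13.90 in VC-. Reg3g was at 2.40, 11.88, 11.92, 2.84 and 6.32 in VC+ and at 13.27, 11.95 and 12.08 in VC-. In both genes VC+ replicates 2 and 3 were close to the VC- arrays and VC+ replicates 1, 4 and 5 were lower.

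Structural lists had higher signals in VC+, again without a called gene. All 22 smooth muscle genes tested were positive, with 11 higher and 0 lower at an unadjusted p under 0.05 and a median of 0.78. Of all genes tested 6.69% were higher at that level. The groups did not overlap in 1 of the 22, against 3.72% of all genes tested that were higher without overlap. Des, the intermediate filament of muscle, was at 11.66, 11.34, 11.75, 11.40 and 11.48 in VC+ and at 11.33, 9.43 and 9.61 in VC-. Synpo2, an actin-bundling protein of muscle, was at 9.38, 6.95, 9.20, 9.51 and 9.11 in VC+ and at 7.29, 4.27 and 4.38 in VC-. Of the other 3 probe sets of Synpo2, 2 also gave positive differences (2.71 and 1.12), and the one with the highest signals, 9.44 to 10.54 in VC+ and 10.14 to 11.16 in VC-, gave -0.72. By the mean of the list VC- replicate 1, at 10.65, had close to the muscle signal of the VC+ arrays. Between the arrays of day 2 with Xist of 8 or less, where it is the VC- array, the median was -0.09, and between VC+ replicate 2 and the VC- arrays it was 0.27.

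Matrix and fibroblast genes had 10 of 38 higher and 0 lower at an unadjusted p under 0.05, 10 higher without overlap and a median of 0.85. Over all genes tested 6.69% were higher at that level and 3.72% higher without overlap. Col1a1, a chain of type I collagen, was at 9.36, 10.33, 9.88, 11.06 and 11.01 in VC+ and at 9.27, 8.21 and 8.96 in VC- (1.51). Its other probe set gave 0.58 with overlap, at 7.19, 7.70, 7.57, 8.99 and 8.96 in VC+ and 7.36, 7.47 and 7.67 in VC-. Eln, which encodes elastin, was at 6.93, 6.71, 7.32, 9.27 and 9.61 in VC+ and at 6.37, 4.89 and 3.86 in VC- (2.93). The median between VC+ replicate 2 and the VC- arrays was 0.59. How much muscle or connective tissue each piece held was not measured apart from these genes, and its part in the other differences was not tested.

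Goblet cell genes had 4 of 29 higher and 0 lower at that level, against 6.69% higher among all genes, with a median of 0.63 and 24 positive. Fcgbp, a protein secreted with mucus, was at 14.64, 12.68, 14.03, 14.93 and 14.30 in VC+ and at 12.52, 11.12 and 11.16 in VC- (2.51). The sealing claudin Cldn8 was at 11.76, 9.80, 11.91, 11.32 and 11.97 in VC+ and at 10.36, 8.64 and 6.67 in VC- (2.79). With Hoxb13 as a covariate the median of the goblet cell list was 0.15.

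The other 2 time points share no array with day 2, and Hoxb13 was divided otherwise between their genotypes. At day 0 it was above 7 on all VC- arrays, and at day 7 it was at 3.10, 3.31, 3.07 and 6.88 in VC+ and 3.81, 2.86, 3.03 and 9.62 in VC-. The part of Hoxb13 in the comparisons between days was not tested. Of the 174 genes with an unadjusted p under 0.01 and no overlap at day 2 (1.91% of the genes tested), 105 (60.3%) had the same sign at day 0, against 57% of all genes tested, and 51 (29.3%) at day 7, against 43.8%. For the lower genes alone, 22 of 92 (23.9%) were also lower at day 7. Day 0 had 1 called gene (0.011%) and day 7 had 0 by limma, with 600 (6.6%) and 1291 genes (14.2%) at an unadjusted p under 0.05.

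The change of the genotype difference between times was tested directly. Against day 0, 2 genes (0.022%) passed, Slc16a9 and Agr3, and 588 (6.46%) had an unadjusted p under 0.05. Agr3, a protein disulfide isomerase of secretory cells, was near background at day 2 apart from VC+ replicate 2, with 2.30, 3.34, 2.68, 2.34 and 2.35 in VC+ and 2.35, 2.38 and 2.37 in VC-. At day 0 it was at 2.32, 2.73 and 2.37 in VC+ and at 5.02, 3.78 and 4.48 in VC-, and the interaction was 2.19 (standard error 0.37, adjusted p = 0.0486). Against day 7, 0 genes passed by limma and 1555 (17.1%) had an unadjusted p under 0.05. The replication list, at -0.75 on day 2 and 1.11 on day 7, and the smooth muscle list, at 0.78 on day 2 and -0.78 on day 7, had medians of opposite sign.

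**Figure D5:**
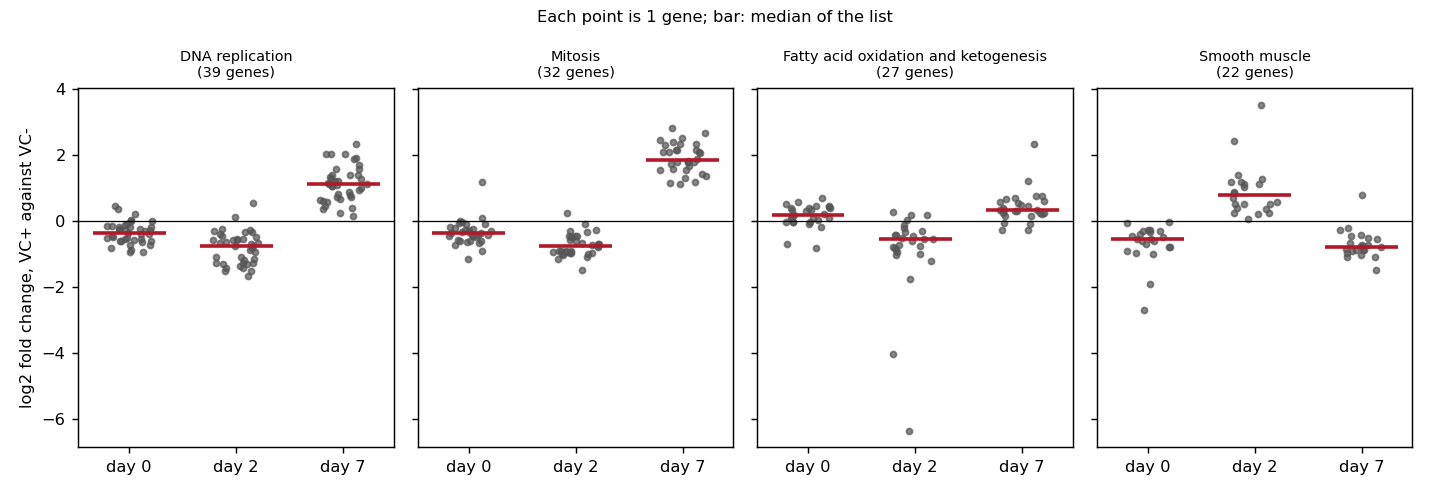
Log2 fold change, VC+ over VC-, at day 0, day 2 and day 7 of the genes of DNA replication, mitosis, fatty acid oxidation and smooth muscle, with 1 point per gene and a bar at the median. DNA replication has medians of -0.35, -0.75 and 1.11 and fatty acid oxidation of 0.19, -0.56 and 0.34.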

How the data were processed

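Gene expression was measured on Affymetrix mouse expression arrays. The deposited log2 values had been computed by the authors with GC-RMA, per the labels with R 2.10.1 and limma named among the tools, and were used as given (45101 probe sets, 0.58 to 16.76, array medians 3.41 to 3.55, 0 value columns left unmapped). Of the 35890 probe sets listed in the platform annotation, 34958 had 1 gene symbol and 932 several; 9211 were not listed, and probe sets with several symbols or none were not named. Symbols were updated through RefSeq (GRCm38.p6).

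Each gene was read through the probe set of widest interquartile range over the 22 arrays, and the upper 50% by that range were tested. A model of 6 group means was fitted to all 22 arrays with limma 3.58.1 in R 4.3.3, with Benjamini-Hochberg adjustment over 9097 genes and a threshold of 0.05. The residual degrees of freedom were 16 and the prior 2.78. For 7 single genes an exact permutation test was computed with scipy 1.17.1. The labels do not say that replicates are separate mice, so p-values measure the spread between these arrays, whose number limits the precision.

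The members and the 43 gene lists were chosen with earlier results of these data known. Named were all called genes, up to 15 genes per direction with the largest difference at an unadjusted p under 0.01 and no overlap, up to 3 genes per list with the smallest p, genes followed singly by the study, and genes that describe the arrays. Acaa1a, Hsd17b4, Slc27a2, Vnn1, Dgat2, Mgll, Dgat1, Acadl, Cpt1a, Acot1, Ehhadh, Eci2, Gzma, Gzmb, Mcm6, Pcna, Arntl, Hoxd10, Nktr, Plppr5, Trim9 and Epgn were named after their values were seen. Alternatives covered the filter, the probe set, the normalization, array weights, covariates, a replicate block and leaving out arrays.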

Additional observations from a re-analysis of the deposited data

Results flagged for a closer look

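One array, VC+ replicate 2, lay far from the other 4 VC+ arrays of day 2 in 15 of the 74 genes looked at, and all 15 such cases were on this array. Chance alone marks about 1 in 20 groups, and genes that move together are not independent cases. Many of these genes were named from these same arrays, some after their values were seen, so that rate does not apply to them. VC+ replicate 2 was the highest VC+ array in Acaa1b (4.86), Ppara (7.88), Cyp2c65 (13.38), Arg2 (7.03), 1810065E05Rik (14.53), Ugt8a (7.36), Slc27a2 (4.48), Dgat2 (6.26), Hsd17b4 (10.25) and Acadl (12.01). It was the lowest in Nrip1 (7.20), Sval1 (12.40), Rpa2 (4.82), Synm (9.60) and Synpo2 (6.95). In Rpa2 the step was small, since the other VC+ arrays lay between 5.07 and 5.14, and it led away from the VC- arrays at 6.03 to 6.88. The same array had a Hoxb13 signal of 3.07, against 9.45 to 12.42 on the other VC+ arrays.

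In 2 genes the difference between genotypes at day 2 differed from that at day 0 by the interaction test of limma. The change of the log2 fold change was 2.19 for Agr3, which was near background at day 2, and -4.41 for Slc16a9.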

How the results depend on the processing

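The number of genes called at day 2 depended on the arrays and the model. Against 4 in the fit as reported it was 11 with array weights, 160 (chosen after seeing the data) with only the day-2 arrays of Xist above 8, and 1 each with only day-2 arrays of Hoxb13 under 5 (Trim9) and with only the 8 arrays in the fit (Lpo). It was 0 with a replicate block, with Hoxb13 as a covariate, with only arrays of Xist of 8 or less, and, chosen after seeing the data, with Xist of 8 or less at day 2 only, with Hoxb13 and Xist together and with Dbp as a covariate. At an unadjusted p under 0.05 there were 860 genes with the replicate block, 421 with Hoxb13 and 346 with Dbp as a covariate and 37 with only arrays of Xist of 8 or less. Leaving out 1 array gave 1 to 250 calls, with 19 without VC+ replicate 2 and 250 without VC- replicate 1. The labels do not say whether the replicate numbers pair samples, and too few pairs were at hand to decide it. After subtraction of group means, same-numbered pairs of day 2 correlated at -0.104 to 0.324, with 1 of 3 over 0.1. Of pairs with other numbers 2 of 12 were over 0.1, and over all groups 18 of 48 same-numbered pairs were. The count of calls in the change from day 0, 2 as reported, was 0 without a filter, with a level filter, with the highest-mean probe set, with trend and robust moderation, with the replicate block, without the arrays with Prss2 signal and with only arrays of Xist of 8 or less, 340 with array weights and 0 to 38 when 1 array was left out. In the change from day 7, 0 as reported, it was 1474 with array weights, 2 without the arrays with Prss2 signal (Acaa1b and Epgn) and 0 to 620 when 1 array was left out. The 4 called genes kept their direction under every setting run, which their lack of overlap fixes where arrays are left out. Of 1593 single-gene alternatives over 73 genes, 1491 kept direction and side of the threshold, 38 lost and 34 gained it and 30 turned sign. With day-2 arrays of Hoxb13 under 5 only, the signs turned for Acadl (0.13), Cpt1a (0.0556), Dgat2 (0.25), Slc27a2 (0.0804), Plin2 (0.24), Ppara (0.0031), Nrip1 (-0.13) and Irak1 (-0.018). Other probe sets turned 4833420G17Rik (-0.0843, -0.26, -0.29 and -0.0566), Des (-0.0032), Dgat1 (0.29), Irak1 (-0.26, -0.12 and -0.0182), Kcnf1 (-0.0142), Nrip1 (-0.0475), Ppard (-0.0226), Synpo2 (-0.72) and Tlr4 (-0.0327). Sign changes elsewhere were Agr3 at -0.0304 and Ppard at -0.0302 (Xist above 8), Synm at -0.35 (Xist of 8 or less), Il6 at 0.0318 (array medians subtracted), Irak1 at -0.0366 (Hoxb13) and -0.0112 (Hoxb13 and Xist), and Ppard at -0.0227 (array weights) and -0.0584 to 0.16 when 1 array was left out. The causes were not tested. Genes near background on these arrays limit what could be seen for Tnf, Il6 and most T cell and neutrophil genes.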
